A study of Mus musculus with 24 samples.

Results

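The comparison described here is that of gH2AX, the phosphorylated form of histone H2AX, between XX primary mouse embryonic fibroblasts that lack SIRT7 (KO) and XX wild-type (WT) fibroblasts. Its members were chosen by label, as the chromatin immunoprecipitation (ChIP) libraries of female cells made with the gH2AX antibody, and they are 4 of the 24 libraries of the series: 2 KO and 2 WT. A further 3 sets of 4 libraries, each again 2 KO and 2 WT, were set beside them: input chromatin of XX cells, H2AX ChIP of XX cells and gH2AX ChIP of XY cells. Every group, WT included, was of strain C57BL6 and was harvested 30 min after X-irradiation with 5 Gy, and no unirradiated library was analysed here. The labels name neither the design of the KO allele nor the embryos or cultures behind each library. The 2 libraries of a group may therefore be technical repeats, the p-values measure only the spread between these libraries, and the effect of genotype cannot be told apart from a difference between the cultures used.

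H2AX is a variant of histone H2A that is built into nucleosomes throughout the genome. After a DNA double-strand break, the kinases ATM, ATR and DNA-PK phosphorylate it near its C terminus over a wide chromatin domain around the break, and MDC1 binds this mark and recruits repair factors. SIRT7 is a NAD-dependent deacetylase that is abundant in the nucleolus, associates with ribosomal DNA and is known for roles in break repair.

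Reads were counted by the authors in 100 kb bins of genome build mm10, and 24032 of the 24639 autosomal bins held enough reads to be tested. The gH2AX libraries of XX cells held 132 and 129 M reads for KO and 88.0 and 108 M for WT, which gave a median of 4595 and 4472 reads per autosomal bin in KO and of 3068 and 3784 in WT. All levels below are counts in a bin per 1 M autosomal reads (CPM), and all changes are log2 ratios of KO to WT with their standard error (SE). The median biological coefficient of variation between gH2AX replicates was 2.12%, and replicates varied beyond counting error in both groups (chi-square per degree of freedom 3.25 in KO and 3.15 in WT). A bin of this size cannot show the deletion of an exon. The bin that holds Sirt7 (chr11:120600001-120700000) had 49.3 and 48.3 CPM in KO against 50.0 and 49.5 CPM in WT (-0.03 ± 0.04, adjusted p = 0.768 by edgeR's quasi-likelihood test), and its input was alike (0.01, adjusted p = 0.984), so the loss of SIRT7 was not checked by this locus.

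Relative to the autosomal total, gH2AX differed little between KO and WT over most of the genome, and the bins called were mostly lower in KO. Scaling to autosomal reads removes any gain or loss of gH2AX shared by all bins. The total amount of gH2AX was therefore not compared, and the balance of directions depends on the scaling. Of the 24032 autosomal bins, 292 (1.22%) passed an adjusted p of 0.05, 68 of them higher in KO (0.283%) and 224 lower (0.932%). Their median change was 0.146 in size, and 94.3% of all bins changed by under 0.1. Bins that changed by more than 0.5 numbered 22. The changes were scattered, since 249 of the 261 regions of neighbouring called bins held a single bin. The KO and WT libraries did not overlap in 290 of the 292 called bins, and in 44.8% of all bins tested, but the call itself selects for this. At an unadjusted p of 0.05, 15.9% of the bins passed. The count was 81 without KO replicate 2, 101 without WT replicate 1, 223 without KO replicate 1 and 367 without WT replicate 2. DESeq2 called 100 bins, 9 of them higher. With TMM scaling 251 bins passed, of which 39.8% were higher in KO, against 23.3% with scaling to autosomal reads.

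Input of the same cells changed in 43 autosomal bins (0.179%), 12 higher (0.0499%) and 31 lower (0.129%) in KO, and H2AX in 37 (0.154%), 8 higher (0.0333%) and 29 lower (0.121%). Of the 292 gH2AX bins, 28 were called in input in the same direction and 264 were not. When the change in input was subtracted from that in gH2AX in a fit of all 24 libraries, 132 bins passed (0.549%), 40 higher (0.166%) and 92 lower (0.383%). Subtraction of the change in H2AX left 66 bins (0.275%), 22 higher (0.0915%) and 44 lower (0.183%). These counts moved with single libraries. That against input was 40 without gH2AX KO replicate 2, 38 without gH2AX WT replicate 1, 36 without input KO replicate 2, 53 and 46 without input WT replicate 1 or 2, and 215 without gH2AX WT replicate 2. That against H2AX was 28 without H2AX KO replicate 2, 33 without gH2AX KO replicate 2, 43 without gH2AX WT replicate 1, and 115 and 161 without gH2AX KO replicate 1 or WT replicate 2. The balance of directions against input moved with scaling, with 51 higher and 44 lower by TMM and 6 higher and 151 lower by DESeq2, and against H2AX DESeq2 gave 4 higher and 243 lower.

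**Figure D1:**
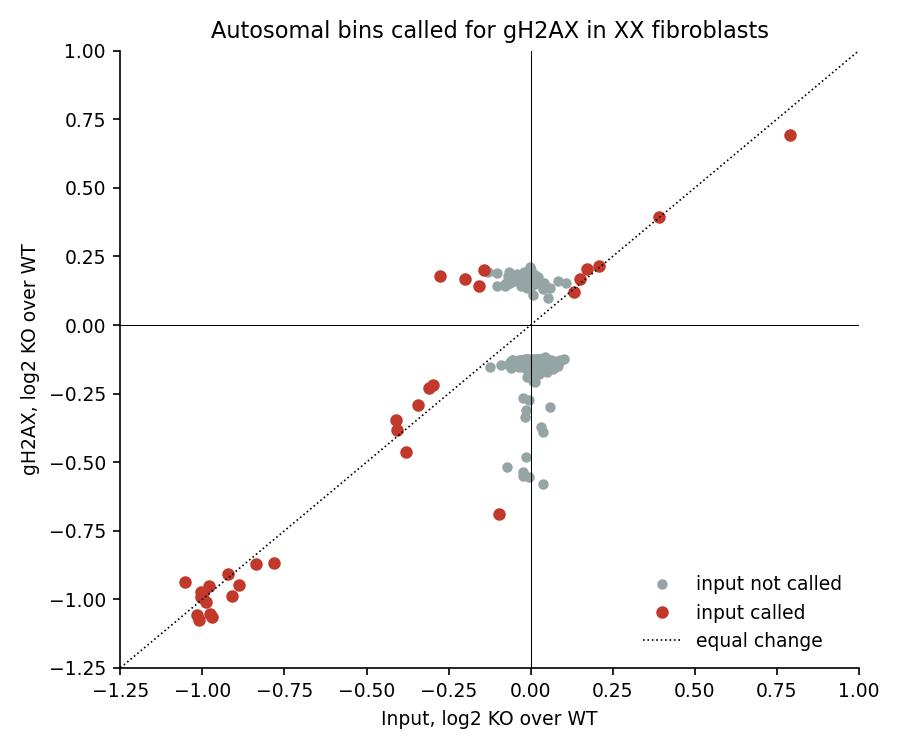
Log2 change of gH2AX (y axis) against log2 change of input (x axis), KO over WT, for the 292 autosomal bins called for gH2AX in XX fibroblasts. Each point is a bin. Most points called in input (red) lie near the dotted line of equal change at the lower left and upper right, apart from Rn18s-rs5 (-0.10, -0.69) and 4 points at the upper left, while the grey points spread along the y axis at little change in input.

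The largest falls that were not matched in input lay in bins where gH2AX stands highest above input. The 12 autosomal bins with the highest gH2AX to input ratio were taken from the XY libraries, whose levels do not enter the XX ratio of KO to WT, although the XY gH2AX libraries share in the estimate of its dispersion. With the 4 XX libraries alone 125 autosomal bins were called in place of 292. Of the 12 bins, 9 were called lower in KO and 1 higher in the main fit, with a median change of -0.50. Among all autosomal bins 0.932% were called lower and the median was -0.007. All 9 lower bins of the 12 passed when the change in input was subtracted and when the change in H2AX was subtracted.

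The highest of these bins (chr17:39800001-39900000) holds Rn18s-rs5, annotated as a relative of 18S rRNA, and no protein-coding gene. It had 2268 and 2089 CPM of gH2AX in KO against 3697 and 3332 CPM in WT. Both KO libraries lay below both WT libraries, and gH2AX in KO was 0.620 times that in WT (-0.69 ± 0.02, adjusted p = 3.32e-171, edgeR). Its input had 267 and 274 CPM in KO and 291 and 287 CPM in WT, a smaller fall (-0.10, adjusted p = 0.00135). H2AX fell there as well, with 219 and 218 CPM in KO against 264 and 266 CPM in WT (-0.28, adjusted p = 8.01e-10). The gH2AX fall exceeded that of input by 0.59 (adjusted p = 2.06e-34) and that of H2AX by 0.41 (adjusted p = 8.62e-19), both as log2 differences by edgeR. How reads that align to several repeats were placed is not given in the sources used here, so these reads cannot be assigned to one locus. The same limit applies to the other bins of this set. The genes named for them below give the position of the bin, and the bins may not be independent.

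A bin without a protein-coding gene, chr11:109000001-109100000, had 174 and 169 CPM in KO against 266 and 246 CPM in WT (-0.58 ± 0.03). At chr16:11100001-11200000, the bin of Zc3h7a, which encodes a zinc finger RNA-binding protein, and of Txndc11 and Rsl1d1, gH2AX had 128 and 122 CPM in KO against 192 and 175 CPM in WT (-0.56 ± 0.03). The gene-free bin chr3:5800001-5900000 had 142 and 132 CPM in KO against 205 and 197 CPM in WT (-0.55 ± 0.03). In each of these bins both KO libraries lay below both WT libraries, while input changed by 0.04, -0.01 and -0.02 and H2AX by -0.09, -0.02 and -0.08.

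The bin of Lars2, the mitochondrial leucyl-tRNA synthetase (chr9:123400001-123500000), had 89.2 and 85.5 CPM in KO against 132 and 122 CPM in WT (-0.54 ± 0.03). That of Cmss1, Filip1l and Tmem30c (chr16:57300001-57400000) had 136 and 131 CPM in KO against 198 and 183 CPM in WT (-0.52 ± 0.03). At the bin of Cdk8, the kinase of the Mediator complex (chr5:146200001-146300000), the levels were 120 and 112 CPM in KO against 167 and 157 CPM in WT (-0.48 ± 0.03). The groups did not overlap in any of these bins, and none of them was called in input or in H2AX. Smaller falls were found at Hic2, which encodes a transcriptional repressor (chr16:17200001-17300000, 82.0 and 78.8 CPM in KO against 107 and 104 CPM in WT, -0.39 ± 0.03), and at Jarid2, a partner of the Polycomb complex PRC2 (chr13:44800001-44900000, 64.2 and 64.2 CPM in KO against 79.5 and 75.1 CPM in WT, -0.27 ± 0.03). The adjusted p-values of these 8 falls ran up to 1.70e-12 (Jarid2, edgeR), and each bin passed without any single gH2AX library.

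Outside this set of 12, the largest falls not called in input were in the bins of Cntnap5b (chr1:100100001-100200000), Gphn (chr12:78300001-78400000) and Myl12a with Myl12b (chr17:70900001-71000000). Cntnap5b encodes a neurexin-like adhesion protein, Gphn the synaptic scaffold gephyrin, and the Myl12 genes regulatory light chains of non-muscle myosin. gH2AX had 50.6 and 47.7 CPM at Cntnap5b in KO against 66.4 and 60.9 CPM in WT (-0.37 ± 0.04), 59.7 and 58.6 CPM at Gphn in KO against 77.8 and 71.8 CPM in WT (-0.34 ± 0.03), and 58.9 and 59.0 CPM at the Myl12 genes in KO against 72.2 and 74.0 CPM in WT (-0.31 ± 0.03). Neither input nor H2AX moved by more than 0.03 in these bins, whose gH2AX stood 0.65, 0.62 and 0.67 (log2) above input in XY cells.

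Among the 12 bins, 2 did not change detectably. They were the gene-free bin chr6:114500001-114600000 (151 and 141 CPM in KO, 151 and 150 CPM in WT, -0.04 ± 0.03, adjusted p = 0.536) and that of Crocc, which encodes rootletin of the ciliary rootlet (chr4:141000001-141100000, 58.3 and 55.2 CPM in KO, 57.5 and 56.6 CPM in WT, adjusted p = 0.957). KO and WT libraries overlapped in both. The bin that rose, chr7:90400001-90500000 with Dlg2, Sytl2 and Tmem126b, had 159 and 175 CPM in KO against 143 and 152 CPM in WT (0.18 ± 0.03, adjusted p = 3.45e-06), although its input was lower in KO (69.5 and 75.6 CPM against 87.3 and 88.4 CPM in WT). This rise missed the threshold without KO replicate 2 and without WT replicate 1, with changes of 0.11 to 0.24 over the 4 libraries left out in turn.

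**Figure D2:**
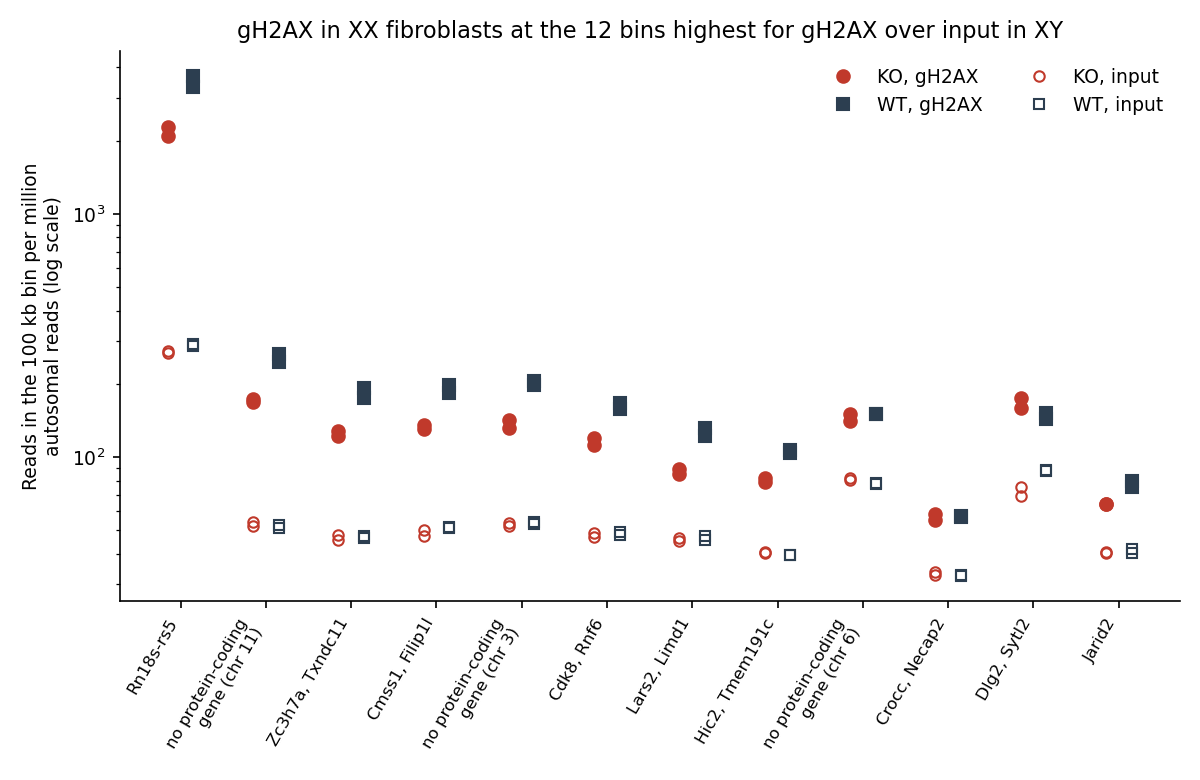
Level in CPM (log y axis) of gH2AX (filled) and input (open) in each XX library, KO circles left of WT squares, at the 12 autosomal bins with the highest gH2AX to input ratio in XY libraries, labelled by gene. At Rn18s-rs5 the 2 KO gH2AX libraries stand at 2268 and 2089 and the 2 WT libraries at 3697 and 3332, while input points of KO and WT lie close together in most bins.

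The falls in most of these bins were close to proportional to one another. After subtraction of the mean input level of the same group, the bin of Rn18s-rs5 held an excess of 1997 and 1818 CPM of gH2AX in KO against 3408 and 3042 CPM in WT. The excess at chr11:109000001-109100000 was 6.03% and 6.34% of that in the KO libraries and 6.27% and 6.39% in the WT libraries. At Zc3h7a it was 4.08% and 4.12% in KO against 4.26% and 4.23% in WT, and at Cdk8 it was 3.59% and 3.52% in KO against 3.47% and 3.56% in WT. Over all 8 gH2AX libraries of both sexes these shares ran from 6.03% to 6.39%, from 3.89% to 4.26% and from 3.34% to 3.59%. The ratio of the highest to the lowest share among the 4 XX libraries was 1.06 at Hic2, 1.15 at Lars2 and 1.16 at Jarid2. It was 1.55 at Cntnap5b, 1.63 at chr6:114500001-114600000, 1.71 at Crocc and 3.50 at Sytl2, so these bins did not keep to the proportion. This measure was chosen after the values had been seen and was not tested. Whether the bins that kept close to the proportion are separate loci was not tested.

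The landscape as a whole was flatter in KO, with small rises where gH2AX over input was low and falls where it was high. When autosomal bins were ranked into deciles by gH2AX over input in XY libraries, the median change in XX cells was 0.047 in the lowest decile and -0.059 in the highest, and it was lower at each step between. The share of bins with a lower value in KO was 14.2% in the lowest decile, 51.3% in the fifth and 92.8% in the highest. Of the 2404 bins of the highest decile 108 were called lower and 4 higher, and of those of the lowest decile 1 was called lower and 33 higher. Input ran the other way by less, with medians of -0.020 and 0.019 in the lowest and highest deciles, and H2AX with -0.010 and 0.011. In the highest decile the median log2 ratio of gH2AX to the mean input of the same genotype was 0.368 and 0.345 in the KO libraries against 0.447 and 0.423 in WT. In the lowest decile it was -0.226 and -0.209 in KO against -0.296 and -0.273 in WT. In both deciles the KO libraries lay nearer to 0 than either WT library.

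**Figure D3:**
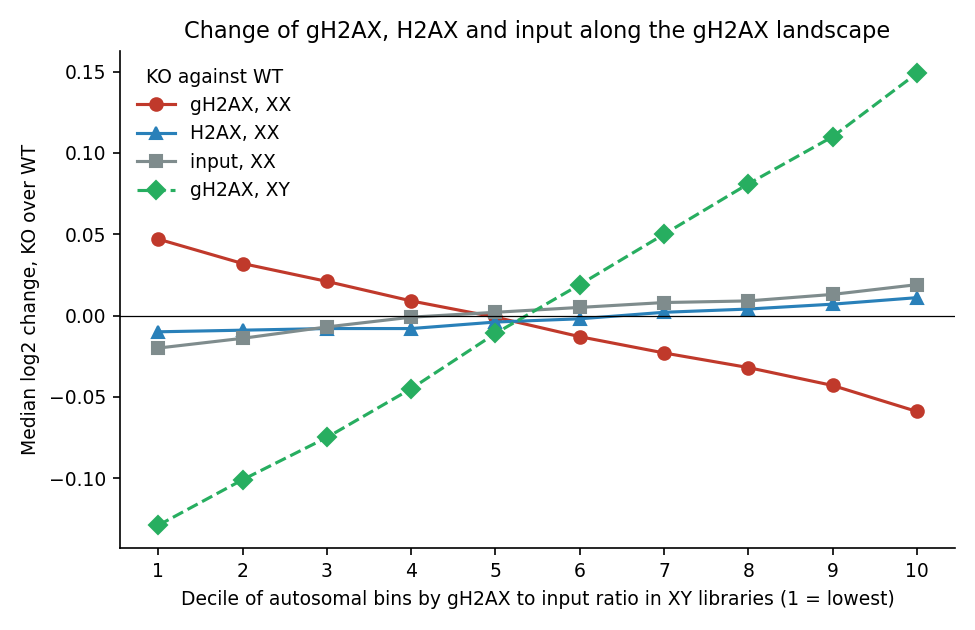
Median log2 change of KO over WT (y axis) in 10 groups of autosomal bins ranked by gH2AX over input in XY libraries (x axis), for gH2AX, H2AX and input of XX cells and gH2AX of XY cells. The XX gH2AX line runs downwards, from 0.047 in decile 1 to -0.059 in decile 10, the XY gH2AX line runs upwards, and input and H2AX stay within 0.020 of 0.

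Each library showed this on its own. The distance between the 10th and the 90th percentile of log2 gH2AX over input was 0.493 and 0.463 in the KO libraries and 0.618 and 0.579 in the WT libraries of XX cells. The means were 0.478 ± 0.0212 in KO and 0.599 ± 0.0276 in WT (SD, n = 2 each), a difference of -0.121. The exact two-sided permutation test gave p = 0.333, which is the smallest p that 2 against 2 libraries allow. For H2AX in XX cells the distances were 0.691 and 0.703 in KO against 0.719 and 0.721 in WT. For gH2AX in XY cells they were 0.652 and 0.631 in KO against 0.426 and 0.403 in WT, the reverse order. The fitted slope of each XX gH2AX library on the XY ratio was 0.922 and 0.861 in KO against 1.14 and 1.08 in WT. Across the 24032 bins, which share the libraries and are not independent replicates, the XX change and the XY ratio to input had r = -0.55 and rho = -0.61, and r = -0.60 over the 23893 bins that were neither called in input nor rich in copies.

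**Figure D4:**
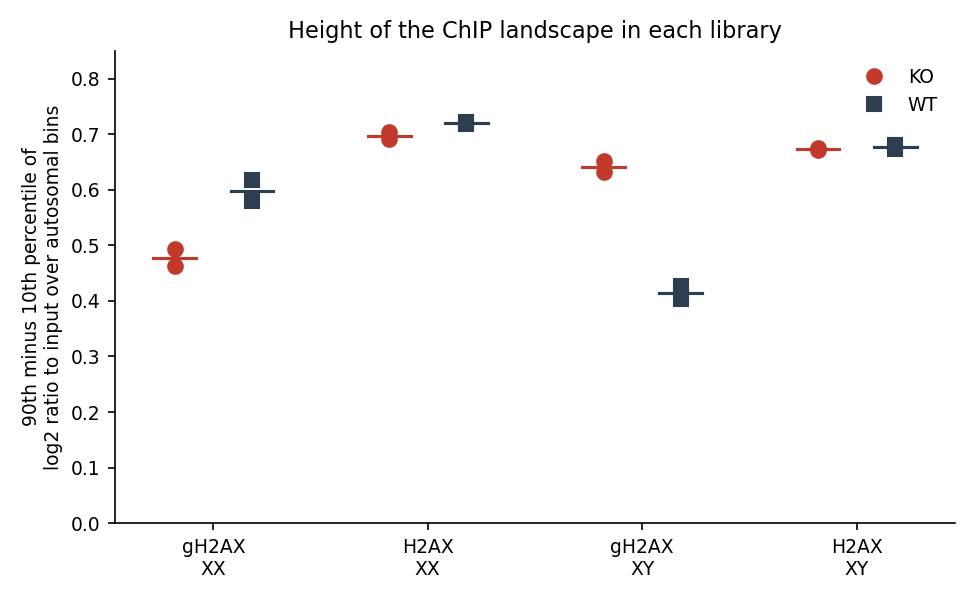
Distance between the 10th and 90th percentile of log2 ChIP over input across autosomal bins (y axis, from 0) for each library of gH2AX and H2AX in XX and XY cells, KO left of WT. Points are libraries and lines are means of 2. For gH2AX the XX KO libraries (0.493 and 0.463) lie below the XX WT libraries (0.618 and 0.579), and the XY KO libraries lie above the XY WT libraries.

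When the trend of each library on the XY ratio was removed, an alternative chosen after the data had been seen, 63 of the bins were called (19 higher, 44 lower), 57 of them shared with the 292. The trend was held level at both extremes of the XY ratio, so the bins highest in that ratio could lose little of their change by construction. The bin of Rn18s-rs5 kept a change of -0.62, that of chr11:109000001-109100000 of -0.51 and that of Lars2 of -0.47. Whether these changes exceed the trend was therefore not tested. The top and bottom deciles then differed by -0.001 in place of -0.106. Of 50 named bins called before, 27 remained called after this removal.

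The called bins differed from the rest in gene content. Of the bins higher in KO 76.5% held no protein-coding gene, against 29.5% of the bins lower in KO and 55.6% of all autosomal bins tested. Bins with 5 or more genes made up 8.48% of those lower in KO, 1.47% of those higher and 2.77% of all. By gene number, the median change was 0.007 in the 13358 bins without a gene, -0.019 with 1 gene, -0.028 with 2, -0.036 with 3 to 4 and -0.047 in the 666 bins with 5 or more. Of the bins with 5 or more genes 2.85% were called lower and 0.150% higher. Gene number and the gH2AX to input ratio ran together (the median XY ratio was -0.10 in bins without a gene and 0.33 in bins with 5 or more), and their parts in the change were not separated.

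The bins that rose did so by small amounts, with a median change of 0.16 and a highest of 0.21 among the 62 not called higher in input. The largest was a gene-free bin, chr3:62000001-62100000, with 33.6 and 35.3 CPM in KO against 30.0 and 29.5 CPM in WT (0.21 ± 0.04, adjusted p = 2.62e-04). Among the leading rises were bins of Erbb4, Pclo and Brinp3. The bin within Erbb4, a receptor for neuregulins (chr1:68300001-68400000), had 30.5 and 30.2 CPM in KO against 26.7 and 26.3 CPM in WT (0.19 ± 0.05). That within Pclo, which encodes the presynaptic protein piccolo (chr5:14700001-14800000), had 32.9 and 32.6 CPM in KO against 27.6 and 30.0 CPM in WT (0.18 ± 0.04). That of Brinp3 (chr1:146600001-146700000) had 29.8 and 33.3 CPM in KO against 27.5 and 27.6 CPM in WT (0.20 ± 0.04). The groups did not overlap in any of them. Further rises were in the bin of Cdh19, which encodes a cadherin (chr1:110900001-111000000, 0.19), and in gene-free bins at chr1:26000001-26100000 (0.20), chr7:60900001-61000000 (0.19) and chr15:20000001-20100000 (0.18). Each of these 7 lost its call without KO replicate 2 and in up to 2 other cases of 1 library left out, as did chr3:62000001-62100000 without KO replicate 2, and of these 8 only chr3:62000001-62100000 kept its call after removal of the enrichment trend.

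Bins that gather very many reads were called more often than others. In 103 autosomal bins the XY input was at least 2 times that of the median bin, and 10 of these rose and 2 fell (11.7% called, against 1.22% of all bins). Their median change was only 0.014, and some of the calls, as at Vcan, were matched in input. The bin chr2:98600001-98700000 alone held 5.6% and 5.62% of the autosomal gH2AX reads in KO and 5.12% and 5.09% in WT. It had 55961 and 56184 CPM in KO against 51170 and 50946 CPM in WT (0.14 ± 0.02, adjusted p = 2.54e-10), and its input did not change detectably (-0.01, adjusted p = 0.932). The bins chr9:3000001-3100000 and chr14:19400001-19500000 rose by 0.19 and 0.18, with 12452 and 12815 CPM in KO against 10929 and 11183 CPM in WT at the first, and 11752 and 12166 CPM in KO against 10384 and 10778 CPM in WT at the second. The bins chr9:35300001-35400000 and chr12:3100001-3200000 rose by 0.11 and 0.10. None of the 5 holds a protein-coding gene. Their XY gH2AX to input ratio was -0.42 to -0.28, within the lowest decile, whose bins also rose (median 0.047). With their high counts the SE was 0.02 to 0.03, against a median of 0.0385 over all bins. Together they held 8.93% and 9.04% of the gH2AX reads in KO against 8.10% and 8.14% in WT, and between 10.5% and 10.7% of input in the 4 XX libraries. Since these reads enter the total, the scale of all other bins moves with them. With the total taken outside the 103 bins, 251 bins passed, 113 higher and 138 lower.

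Several of the largest changes in gH2AX were matched by input. At chr8:47500001-49200000, a block of 17 bins with Tenm3, which encodes a teneurin adhesion protein, Wwc2 and Dctd, gH2AX averaged 22.4 and 22.0 CPM per bin in KO against 41.3 and 41.2 CPM in WT. Input averaged 20.7 and 20.8 CPM in KO against 37.7 and 38.0 CPM in WT, and H2AX 21.9 and 21.7 CPM against 39.7 and 39.5 CPM. The median change was -0.97 for gH2AX, -0.98 for input and -0.94 for H2AX. All 17 bins were called for gH2AX, and none was called once the change in input was subtracted. The leading bin (chr8:48800001-48900000) changed by -1.08 ± 0.04 for gH2AX and -1.01 for input. In XY cells the median gH2AX change over the block was 0.09. The gH2AX libraries labelled XX KO thus carried the same loss of reads as the input libraries with that label, and the others did not.

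**Figure D5:**
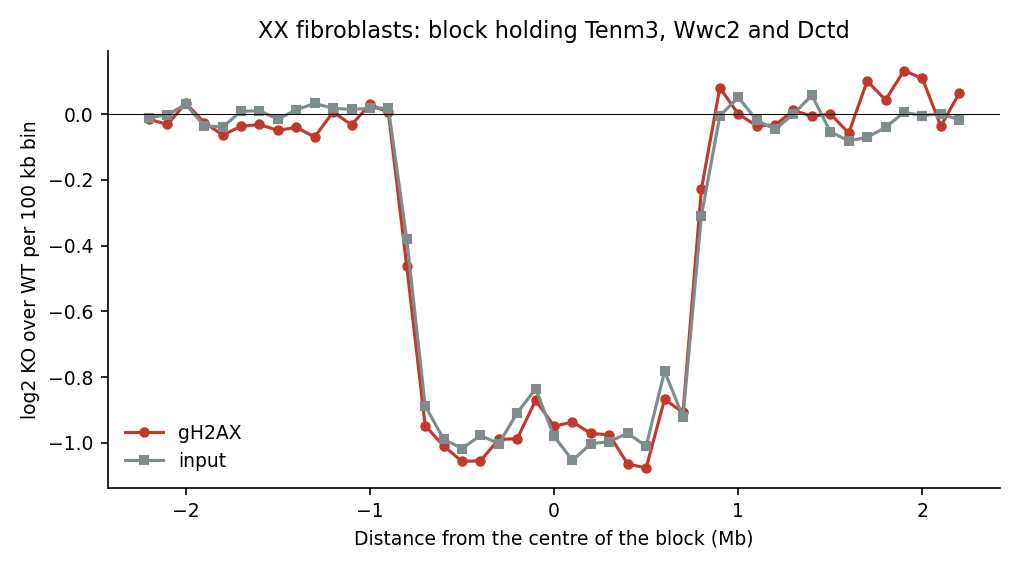
Log2 change of KO over WT per 100 kb bin (y axis) for gH2AX (red circles) and input (grey squares) of XX cells, against the distance in Mb from the centre of the block that holds Tenm3, Wwc2 and Dctd (x axis). Both lines drop together within the block, to medians of -0.97 and -0.98, and lie near 0 outside it.

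The bins of Hapln1 and Vcan (chr13:89400001-89700000), which encode a link protein and the proteoglycan versican of the extracellular matrix, fell likewise. gH2AX averaged 47.7 and 47.2 CPM per bin in KO against 59.7 and 59.2 CPM in WT, and input 54.0 and 51.6 CPM in KO against 68.4 and 68.8 CPM in WT, with median changes of -0.35 and -0.41. A gene-free bin at chr8:74000001-74100000 fell by 0.29 on the log2 scale with a change of -0.34 in input. In the other direction, 3 bins of predicted genes at chr14:43200001-43500000 rose by a median of 0.17 for gH2AX and 0.15 for input. None of these bins was called after subtraction of input.

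The neighbour of the Sirt7 bin, chr11:120500001-120600000, holds P4hb, which encodes a protein disulfide isomerase, Gcgr, the glucagon receptor, and Mcrip1. It showed the largest gH2AX rise of the comparison, with 80.6 and 76.9 CPM in KO against 49.2 and 48.5 CPM in WT (0.69 ± 0.03, adjusted p = 1.28e-84). Input had 64.9 and 63.3 CPM in KO against 36.9 and 37.1 CPM in WT (0.79), and H2AX had 88.4 and 88.0 CPM in KO against 46.8 and 47.6 CPM in WT (0.90). The rise in gH2AX was thus smaller than that in H2AX (-0.21, adjusted p = 0.00373) and did not differ detectably from that in input (-0.10 ± 0.05, adjusted p = 0.280). The bin on the other side, chr11:120700001-120800000, had 46.7 and 48.4 CPM in KO against 49.6 and 50.5 CPM in WT (-0.07, adjusted p = 0.294).

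The locus of Srp54a, Srp54b and Srp54c, near-identical genes for a subunit of the signal recognition particle, rose together with its input. Its leading bin, chr12:55100001-55200000, had 42.2 and 42.6 CPM of gH2AX in KO against 32.3 and 32.3 CPM in WT (0.39 ± 0.04), and input of 40.9 and 40.4 CPM in KO against 31.6 and 30.3 CPM in WT (0.39). In XY cells the order was reversed, with 26.5 and 26.4 CPM in KO against 44.4 and 42.3 CPM in WT. The called bins span chr12:55100001-55300000, and the stretch shown for Srp54a lies outside them. Short stretches of the 3 genes are shown because the near-identity of the genes limits the assignment of reads to one copy. They are RefSeq sequence of GRCm38.p6, plus strand, 30 bases each, from chr12:55080250-55080279, chr12:55155092-55155121 and chr12:55230156-55230185, and capitals mark the 3 positions at which they differ.
Srp54a: tTGcggagttctgCactctttcacgtagtc
Srp54b: tCCcggagttctgTactctttcacgtagtc
Srp54c: tCCcggagttctgTactctttcacgtagtc
Srp54b and Srp54c had 0 mismatches over this stretch, and Srp54a had 3 to either of them.

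In 4 bins gH2AX rose in KO although input fell. The bin of Lmbrd1, which acts in lysosomal export of vitamin B12 (chr1:24600001-24700000), had 117 and 118 CPM of gH2AX in KO against 106 and 98.2 CPM in WT (0.20 ± 0.03), and input of 387 and 378 CPM in KO against 424 and 422 CPM in WT (-0.14). The bins of Srgap1 (chr10:121700001-121800000), of Sytl2 and a gene-free bin at chr14:45800001-45900000 had gH2AX changes of 0.14, 0.18 and 0.17, input changes of -0.16, -0.28 and -0.20, and H2AX changes of -0.30, -0.36 and -0.33. In these 3 bins the estimated fall of H2AX was larger than that of input, a difference that was not tested, and gH2AX moved the other way. The WT libraries of H2AX differed widely there, with 144 and 176 CPM at Srgap1, 260 and 329 CPM at Sytl2 and 189 and 232 CPM at the gene-free bin. After subtraction of input each of the 4 passed as higher (0.34, 0.30, 0.45 and 0.37).

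Among bins of break response genes 1 was called. Of 26 bins of break sensing and signalling genes none was called, with a median change of -0.027 and a range of -0.12 to 0.07, and of 19 end-joining bins none was called (median -0.027), against 1.22% called and a median of -0.007 over all autosomal bins. The largest changes in the first list were at Mdc1, the reader of gH2AX (46.0 and 46.0 CPM in KO, 51.6 and 48.3 CPM in WT, -0.12, adjusted p = 0.0666), at Rad50 of the MRN complex (-0.11, adjusted p = 0.106), at the checkpoint kinase gene Chek2 (-0.08) and at the acetyltransferase gene Kat5 (-0.08, adjusted p = 0.234). Mdc1 passed without WT replicate 2. Of 34 bins of homologous recombination genes 1 was lower, that of the nuclease gene Mus81 (chr19:5400001-5500000), with 45.0 and 43.6 CPM in KO against 49.0 and 49.0 CPM in WT (-0.15 ± 0.04, adjusted p = 0.0106).

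Of 29 bins of p53 target genes none was called, with a median of -0.047 and 25 of 29 below 0, against 55.3% below 0 among all bins. Cdkn1a, the gene of the cyclin-dependent kinase inhibitor p21, had 42.5 and 42.9 CPM in KO and 46.4 and 45.6 CPM in WT (-0.11, adjusted p = 0.109). Pmaip1, which encodes the pro-apoptotic protein NOXA (-0.11), the repair gene Xpc (-0.11) and Btg2 (-0.10) had changes of like size. Among immediate early genes 3 of 24 bins were lower, against 0.932% of all autosomal bins, with a median of -0.061. They were the bins of Klf4, a transcription factor (38.3 and 37.3 CPM in KO against 42.2 and 43.0 CPM in WT, -0.17 ± 0.04, adjusted p = 0.00153), of Klf2 (49.8 and 47.9 CPM in KO against 56.5 and 51.3 CPM in WT, -0.14 ± 0.04) and of Fosl1, which shares its bin with Mus81. The median gH2AX to input ratio of these lists in XY cells was 0.21 to 0.30, above the -0.01 of all bins, and its part in their medians was not tested beyond the removal of the trend, which gave medians of -0.004 for p53 targets and -0.024 for immediate early genes, and of 0.011 for break sensing genes.

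Of 29 bins of fibroblast matrix and identity genes 3 were lower, against 0.932% of all autosomal bins (median -0.052). After removal of the enrichment trend the median of this list was -0.025. Thbs1, which encodes thrombospondin, had 54.0 and 55.1 CPM in KO against 62.5 and 60.6 CPM in WT (-0.17 ± 0.03, adjusted p = 2.82e-04), and Fn1, which encodes fibronectin, had 44.3 and 45.3 CPM in KO against 48.6 and 50.3 CPM in WT (-0.14 ± 0.04, adjusted p = 0.0131). The other was Vcan, described above with its input. ChIP of this kind shows loci and not expression, so these genes do not test the cell type. Lists of genes of other cell types had 1 of 10 epithelial bins lower (Epcam, -0.15), 1 of 19 neuronal bins lower (Tubb3, -0.13) and none of 18 haematopoietic and 8 endothelial bins, counts too small to set against that share.

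The 80 bins of cytosolic ribosomal protein genes had a median of -0.046, and that of Rplp2 was lower (-0.12, adjusted p = 0.0490). Of 276 bins of Zfp genes 4 were lower (Zfp1, Zfp703, Zfp827 and Zfp553, -0.16 to -0.13), near the 0.932% of all autosomal bins called lower. Of 15 keratin bins 1 was lower (Krt13, Krt15, Krt19 and Krt36, which share it, -0.13). Among receptors of smell, 1 of 338 olfactory receptor bins was lower (Olfr1274, -0.13), again against 0.932%, and the median was 0.024. None of 202 vomeronasal receptor bins was called (median 0.030). Of 327 bins of long genes at fragile sites 9 were lower, all within Tenm3 and called in input too, and the median was 0.014. None of the 7 sirtuin bins was called (median -0.059, from -0.09 at Sirt3 to -0.03 at Sirt1 and Sirt7), nor were those of 31 imprinted, 9 Hox, 8 protocadherin and 7 histone gene bins. After removal of the enrichment trend the medians were 0.001 for sirtuins, -0.002 for ribosomal protein genes and 0.002 for Zfp genes. They were 0.005 for olfactory receptors, 0.008 for vomeronasal receptors and 0.004 for long genes. Without KO replicate 2, 23 of 50 called bins that are named here lost their call, without WT replicate 1 19, without KO replicate 1 10 and without WT replicate 2 9, among them each of the list genes named as lower except Vcan and Tenm3 in at least 1 of these cases.

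In windows of 1 Mb, 53 of 2414 passed (2.2%), 6 higher (0.249%) and 47 lower (1.95%). The widest runs of lower windows, of 3 windows each, were chr8:47000001-50000000, which holds the Tenm3 block, and chr5:134000001-137000000 (Cux1, Col26a1, Hip1), with 29 of 30 bins below 0. The leading window of the second had 458 and 453 CPM in KO against 487 and 477 CPM in WT (-0.08 ± 0.01, adjusted p = 0.0322). The runs at chr8:34000001-36000000 (Tnks, Mfhas1), chr5:143000001-145000000 (Rnf216, Trrap), chr10:83000001-85000000 (Chst11, Rfx4) and chr9:56000001-58000000 (Peak1, Lingo1) had leading changes of -0.08, -0.07, -0.06 and -0.06. Higher windows were led by those of the copy-rich bins on chromosomes 9, 14 and 2 (0.19, 0.17 and 0.13), followed by chr12:37000001-38000000 (Agmo, Dgkb, Meox2, 0.08) and the gene-free window chr1:48000001-49000000 (0.07). The count was 6 without KO replicate 1, 5 without KO replicate 2, 15 without WT replicate 1 and 21 without WT replicate 2. It was 957 with DESeq2 (477 higher, 480 lower) and 15 with library sizes taken outside the copy-rich bins, and with TMM scaling 13 windows were higher and 18 lower.

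XX and XY cells were compared through the difference of their KO to WT changes in a fit of the 8 gH2AX libraries. The KO effect in XY cells was called in 45.7% of the autosomal bins (25.5% higher and 20.2% lower), and the difference between the sexes in 9863 of 24032 bins (41.0%), 3969 higher (16.5%) and 5894 lower (24.5%) in XX. Of the 224 bins lower in XX KO, 164 were called higher in XY KO and 3 lower. Of the 68 bins higher in XX KO, 36 were called lower in XY KO and 4 higher. All 12 of the bins with the highest gH2AX to input ratio were called higher in XY KO, although this ratio was taken from the same XY libraries. At Rn18s-rs5 the XY libraries had 3843 and 3628 CPM in KO against 2163 and 2059 CPM in WT (0.82 ± 0.02), so that the XX change differed from the XY change by -1.51 ± 0.03. The XX KO libraries at this bin (2268 and 2089 CPM) lay near the XY WT libraries, and the XX WT libraries (3697 and 3332 CPM) near the XY KO libraries. This mirrored order, taken alone, puts the genotype labels of the gH2AX libraries in question. At the next loci, where input of XX cells changed as well, the gH2AX libraries went with their labels. At the P4hb bin gH2AX was higher in KO in both sexes, with 80.8 and 81.2 CPM in XY KO against 43.2 and 42.5 CPM in XY WT (0.92), and the loss of reads over the Tenm3 block was found in the libraries labelled XX KO for gH2AX as for input. Bins where both sexes fell included Thbs1, at -0.17 in XX and -0.09 in XY (52.0 and 54.6 CPM in KO against 56.4 and 57.8 CPM in WT, adjusted p = 0.0182).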

How the data were processed

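Per the labels' protocols, chromatin crosslinked with 1% formaldehyde was sonicated and precipitated. The submitters' processing notes name build mm10 and, with no order, MACS2 2.2.7.1, deepTools 2.4.2, Bowtie2 2.2.9, FastQC 0.11.3, SAMtools 0.1.19 and Trimmomatic 0.36. The authors deposited raw read counts per 100 kb bin for each library. A further 24 columns had names that fitted no sample in the labels and were not used. Counts were fitted here with edgeR 4.0.16 in R 4.3.3 (quasi-likelihood F test, two-sided), with library sizes set to autosomal reads, a mean per group over the 8 gH2AX libraries (both sexes, sharing the dispersion), bins kept by filterByExpr, and Benjamini-Hochberg adjustment over autosomal and X bins, of which autosomal bins are reported. Differences from input or H2AX came from a fit of all 24 libraries. The SE was taken from the log2 change and F. The alternatives were TMM, DESeq2 1.42.0, no filter, XX libraries alone, adjustment over autosomal bins alone, a replicate block and each XX library left out, and, added later, removal of the enrichment trend and of copy-rich bins from the total.

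Genes were placed by RefSeq annotation of GRCm38.p6, the assembly of mm10, and a gene's value is that of the bin with most of its body, which it may share. Named regions were, per direction, the 10 with the largest leading change not called in input in that direction. Up to 6 so called in input were named as well. Also named were the 12 bins highest in XY gH2AX over input, the Sirt7 bin and its neighbours. From each list came the called genes (4 at most, and the 4 largest changes for break sensing and p53 targets). The 6 widest runs of 1 Mb windows per direction were added. The copy-rich bins, the bins where input and gH2AX moved apart, and the gene-number classes were chosen after their values were seen. The members and lists were chosen with earlier results of these data known. The main edgeR fits were also run on simulated counts with known changes, which carried no enrichment trend. DESeq2, the removal of the trend, the library size without copy-rich bins and the permutation test were not simulated. Base composition was not analysed here. One called gene of the lists is not reported here.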

Additional observations from a re-analysis of the deposited data

Results flagged for a closer look

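Of 62 named bins, 58 had a KO to WT change in gH2AX that differed between XX and XY cells by the test of the difference itself (edgeR, adjusted over all bins), as did 41.0% of all autosomal bins. Most of the 62 were named for their XX change or their XY gH2AX ratio, so the choice of bins largely fixes this count and nothing is read from it. The differences below are the XX minus the XY log2 change. In 42 of the bins it was negative and in 16 positive.

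The most negative was -1.51 at Rn18s-rs5. Other bins with high gH2AX over input had -1.26 (chr11:109000001-109100000), -1.22 (chr3:5800001-5900000), -1.18 (Zc3h7a), -1.17 (Cmss1), -1.15 (Lars2), -1.10 (Cdk8), -0.90 (Hic2), -0.79 (Cntnap5b), -0.73 (Gphn), -0.69 (Myl12a), -0.68 (Jarid2), and -0.22 at both Crocc and chr6:114500001-114600000. Bins whose input changed had -1.08 and -1.06 (both within Tenm3), -0.36 (Hapln1), -0.31 (Vcan), -0.18 (chr8:74000001-74100000) and -0.23 (P4hb). The bin of Sirt7 had -0.16 and its other neighbour -0.24.

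Among genes of the lists, the differences were -0.19 (Mdc1), -0.28 (Rad50), -0.26 (Chek2), -0.27 (Kat5), -0.23 (Mus81 with Fosl1), -0.26 (Cdkn1a), -0.24 (Xpc), -0.25 (Btg2), -0.28 (Klf4) and -0.33 (Klf2). They were -0.35 (Rplp2), -0.17 (Krt13), -0.27 (Olfr1274), -0.30 (Zfp1), -0.21 (Zfp703), -0.30 (Zfp827), -0.27 (Zfp553), -0.25 (Epcam) and -0.29 (Tubb3).

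The most positive was 1.11 at the Srp54b bin, where input changed as well in XX, followed by 0.80 at Lmbrd1. Gene-poor and copy-rich bins had 0.45 (chr9:3000001-3100000), 0.43 (chr14:19400001-19500000), 0.39 (chr7:60900001-61000000), 0.38 (chr14:43400001-43500000), 0.36 (chr2:98600001-98700000), 0.34 (chr9:35300001-35400000), 0.32 (chr12:3100001-3200000), 0.31 (chr3:62000001-62100000), 0.31 (chr15:20000001-20100000) and 0.30 (chr1:26000001-26100000). Bins within long genes had 0.37 (Brinp3), 0.36 (Erbb4), 0.31 (Pclo) and 0.28 (Cdh19).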

How the results depend on the processing

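Against 292 called gH2AX bins, DESeq2 gave 100 (9 higher, 91 lower), the 4 XX libraries alone 125 and removal of the enrichment trend 63. Leaving out 1 library gave 81 to 367. No paired meaning was found for the replicate numbers (correlation of same-numbered deviations 0.05 over 24032 bins), and the fit with a replicate block called 463 bins and 634 windows of 1 Mb. For gH2AX minus input (132 bins) the count was 36 to 215 with 1 library left out. For gH2AX minus H2AX (66 bins) DESeq2 gave 247, and leaving out 1 library 28 to 161. Of 53 windows of 1 Mb, TMM gave 31, DESeq2 957 and library sizes without copy-rich bins 15, and leaving out 1 library gave 5 to 21. The difference of the top and bottom deciles (-0.106) was -0.001 without the trend, as that removal is built to do, and -0.130 to -0.083 with 1 library left out. Input counts stayed between 30 and 45 and the difference between the sexes between 7434 and 10281 over the alternatives run.

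Signs turned in 3 bins that were not called. Crocc had 0.0015 with TMM, 9e-04 with DESeq2, 0.0055 without copy-rich bins, 0.06 without the trend and -0.05 to 0.03 with 1 library left out. The bin chr6:114500001-114600000 had 0.02 without the trend and -0.09 to 0.0077 with 1 library left out, and that of Sirt7 0.04 without the trend. With TMM, 5 of 21 list medians moved by more than the spread between replicates and none changed sign. Removal of the trend changed the sign of 8. Except where given here or above, the cause was not tested. With an SE of 0.0358 to 0.0445 in most bins, changes under about 0.1 are not detectable at this depth.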

Other observations

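Chromosomes shared the reads of gH2AX in slightly different proportions. Of 19 autosomes, 15 held a lower share of autosomal gH2AX reads in both KO libraries than in either WT library, and chromosomes 2, 9 and 14, which hold the largest copy-rich bins, held a higher one. Without the 103 copy-rich bins 7 autosomes were higher, 6 lower and 6 overlapped. Chromosome 2 held 12.38% and 12.41% of autosomal gH2AX reads in KO against 11.97% and 11.94% in WT. Chromosome 19, rich in genes, held 2.239% and 2.227% in KO against 2.265% and 2.263% in WT.

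Chromosome ends did not stand apart from the rest of the genome. In the first 5 Mb with reads, 3 of 948 bins were called higher and 9 lower (median -0.003), and in the last 3 Mb 2 of 568 higher and 6 lower (median -0.017), against 0.283% and 0.932% of all bins.

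At several loci input was called and gH2AX was not. Input was higher in KO at the bin of C3, the central complement gene, Trip10 and Vav1 (35.9 and 35.4 CPM in KO against 31.9 and 32.6 CPM in WT, 0.15), where gH2AX had 45.0 and 43.1 CPM in KO and 44.0 and 43.8 CPM in WT. Input was lower at the bin of Ly6c1 (140 and 143 CPM in KO against 156 and 157 CPM in WT, -0.15), where gH2AX changed by -0.08 and was not called. In neither bin was the gH2AX change called as different from that of input (-0.14 at C3 and 0.06 at Ly6c1), so a missing call alone is not a difference. At other such bins the difference was called, as at Slc13a3 (-0.22), Olfr825 (0.21) and Sparcl1 (0.24). Of the 31 bins lower in input 22 were called lower and 4 higher for gH2AX, and of the 12 bins higher in input 6 were called higher and none lower.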
